A study of Gallus gallus with 4 samples.

Results

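Messenger RNA was measured for 8 genes of WNT signalling in the growing feather: CTNNB1, LEF1, AXIN2, LGR4, LGR5, LGR6, ROR1 and ROR2. They were chosen by gene name, with earlier results of these data known. All 8 names were found among the 15386 genes of the expression table, where LEF1 is listed as LEF-1. The tissue was the dermal papilla complex of dorsal feathers of White Leghorn chickens at the growing stage, untreated. The dermal papilla is the mesenchymal core at the base of the feather follicle. An anterior and a posterior group were compared, each with 2 of the 4 libraries. Nothing in the labels says that the libraries of a side came from separate birds, so p-values reflect the scatter among these samples alone, and that scatter may be technical. Levels are RPKM, reads scaled to gene length and to the number of mapped reads, so levels of different genes can be compared. Where a pair of values is given for a side, library 1 comes before library 2.

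In canonical WNT signalling a WNT protein binds a Frizzled receptor with an LRP co-receptor, which stops the destruction of beta-catenin. Beta-catenin, the product of CTNNB1, then enters the nucleus and acts with DNA-binding factors of the TCF and LEF family on target genes. AXIN2 is such a target and encodes a scaffold that helps to destroy beta-catenin, a negative feedback. LGR4, LGR5 and LGR6 are receptors for R-spondins, secreted proteins that keep Frizzled receptors on the cell surface by removing the ubiquitin ligases ZNRF3 and RNF43. ROR1 and ROR2 are receptor tyrosine kinases that bind WNT5A and act mainly outside the beta-catenin branch. In skin, beta-catenin signalling is known to be needed to start hair and feather follicles, and LEF1 to mark the mesenchyme and the epithelium of the forming follicle.

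The libraries did not stand on equal footing. Posterior library 1 held 4028 summed RPKM of 11 smooth muscle markers, against 209 to 292 in the other libraries. Its relative depth, inferred from the spacing of low values, was 77.0% of that of anterior library 1, and the other libraries were at 99.7% and 100.1%. The number of reads is unknown. Of the 19 dermal papilla markers in the table, none was at 0 in all libraries, and their sum was highest in posterior library 2. By mean log2 level, 10 of the 16 tested were higher on the anterior and 6 on the posterior side. Of all tested genes, 64.6% were higher on the anterior side. The papilla gene ALPL, alkaline phosphatase, measured 37.2 and 33.7 on the anterior and 3.46 and 19.3 RPKM on the posterior side. SOX2, a papilla marker in the mouse, stayed at or below 0.163 RPKM. Epithelial markers were also high, with 1696 to 3830 summed RPKM over 19 genes, and the keratinocyte gene KRT5 measured 182 to 796 RPKM. In such bulk samples, fewer cells of a type and less RNA per cell cannot be told apart.

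**Figure D1:**
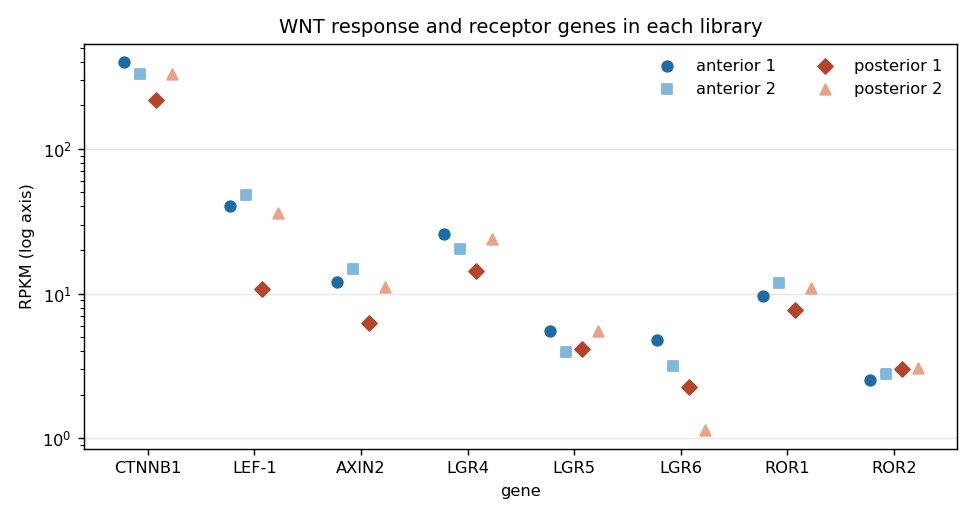
Level of each gene in each library, in RPKM on a log axis, with 1 point per library (blue for anterior, red shades for posterior). CTNNB1 is the highest in every library, posterior library 1 (dark red diamonds) is the lowest point for 5 of the 8 genes, and LGR6 is lowest in posterior library 2 at 1.13 RPKM.

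The 8 genes spanned a wide range of levels, and their order was nearly the same in every library, as the plot of levels by library shows. CTNNB1 came first in all 4 and lay at the 98.6th to 99.2nd percentile of all genes. LEF-1 came next in anterior library 1, anterior library 2 and posterior library 2, and LGR4 took that rank in posterior library 1. AXIN2 lay above ROR1 in 3 libraries and below it in posterior library 1. Of neighbours in this order, CTNNB1 and LEF-1 had ranges that did not overlap, as did ROR1 and LGR5, and the other neighbours overlapped in level. The lowest level was that of ROR2 in anterior libraries 1 and 2, but of LGR6 in posterior libraries 1 and 2.

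No gene of the 8 passed the test between the sides. With limma on log2(RPKM + 1), adjusted by Benjamini-Hochberg over the 10939 genes that reached 1 RPKM in 2 or more libraries, 0 of the 8 genes and 0 of all genes had an adjusted p under 0.05, a background of 0%. All 8 were above that filter, each with at least 1 RPKM in every library. At an unadjusted limma p under 0.05, LGR6 alone of the 8 was found, higher in anterior tissue, as were 0.713% of all tested genes. For the posterior direction the counts were 0 of the 8 and 0.229% of tested genes. Both anterior libraries lay above both posterior libraries for 4 of the 8 genes (CTNNB1, LEF-1, AXIN2 and LGR6), against 18.9% of all tested genes. The reverse held for ROR2, against 7.25% of tested genes. With at least a 2-fold difference on the log2(RPKM + 1) scale added, 1 of the 8, LEF-1, was higher in anterior tissue, against 0.64% of tested genes, and 0 of the 8 in posterior tissue, against 0.192%. The background of separated genes turned on scaling, with 2070 anterior and 793 posterior genes as deposited and 1466 and 1392 after median ratio scaling. That scaling divides each library by its median ratio to the geometric mean of each gene, over genes above 0 in all libraries. By the scaled values 3 of the 8 genes were separated with anterior higher, all but CTNNB1 of the 4, and ROR2 with posterior higher. LEF-1, with a scaled log2 difference of 0.97, then fell short of the 2-fold line. Among all tested genes 45 met that line with anterior higher and 35 with posterior higher after the scaling. The median log2 difference, anterior minus posterior, was 0.36 over the 8 genes and 0.11 over all tested genes. After the scaling these medians were 0.22 and -0.0057. With 2 libraries against 2, an exact two-sided permutation test cannot give a p below 0.333.

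Beta-catenin and its nuclear partner had the highest mean levels of the set on both sides. CTNNB1 measured 397 and 332 RPKM on the anterior side, and 216 and 329.8 RPKM on the posterior side. The sides did not overlap, but anterior library 2 and posterior library 2 were apart by only 0.010 on the log2 scale. The log2 difference was 0.44 with a standard error of 0.30 (limma adjusted p = 0.964), and its 95% interval ran from -0.31 to 1.19. Without posterior library 1 the difference was 0.14. After median ratio scaling posterior library 2, at 318.4, lay just above anterior library 2, at 318.2, and the sides overlapped.

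LEF-1 measured 40.5 and 47.9 on the anterior and 10.8 and 36.2 RPKM on the posterior side. Its means were 44.2 ± 5.24 RPKM (SD, n = 2) and 23.5 ± 17.99 RPKM (n = 2), a ratio of 1.88. All anterior values were the higher ones, and a single library, posterior 1, lay far below the other 3. The log2 difference of 1.10 had a standard error of 0.55 and an interval from -0.28 to 2.49 (limma adjusted p = 0.964). It was larger than that of 99.4% of the tested genes, yet most of it came from that library. After median ratio scaling it was 0.97, and without posterior library 1 it was 0.27. Without posterior library 2 it was 1.93 and passed (limma adjusted p = 0.0371), in a fit where posterior library 1 stands alone and is assumed to vary like the anterior libraries. The gap between the libraries of the posterior side, 1.66 on the log2 scale, was larger than the difference between the sides.

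AXIN2, the feedback gene often used as a readout of beta-catenin activity, measured 12.0 and 14.8 RPKM on the anterior side, and 6.24 and 11.1 RPKM on the posterior side. The sides did not overlap, and posterior library 2 was 0.11 below anterior library 1 on the log2 scale. The log2 difference was 0.62 with a standard error of 0.33 and an interval from -0.22 to 1.45 (limma adjusted p = 0.964). Without posterior library 1 it was 0.25. Within single libraries LEF-1 stood at 3.36 and 3.24 times the level of AXIN2 in the anterior libraries, 3.27 times in posterior library 2 and 1.73 times in posterior library 1. In 3 libraries these genes thus kept a ratio within a narrow range, and in posterior library 1 LEF-1 was lower relative to AXIN2 as well. Relative to CTNNB1, LEF-1 was at 10.2%, 14.4%, 4.98% and 10.99% and AXIN2 at 3.03%, 4.45%, 2.89% and 3.36% in anterior 1, anterior 2, posterior 1 and posterior 2. Both of these ratios overlapped between the sides.

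**Figure D2:**
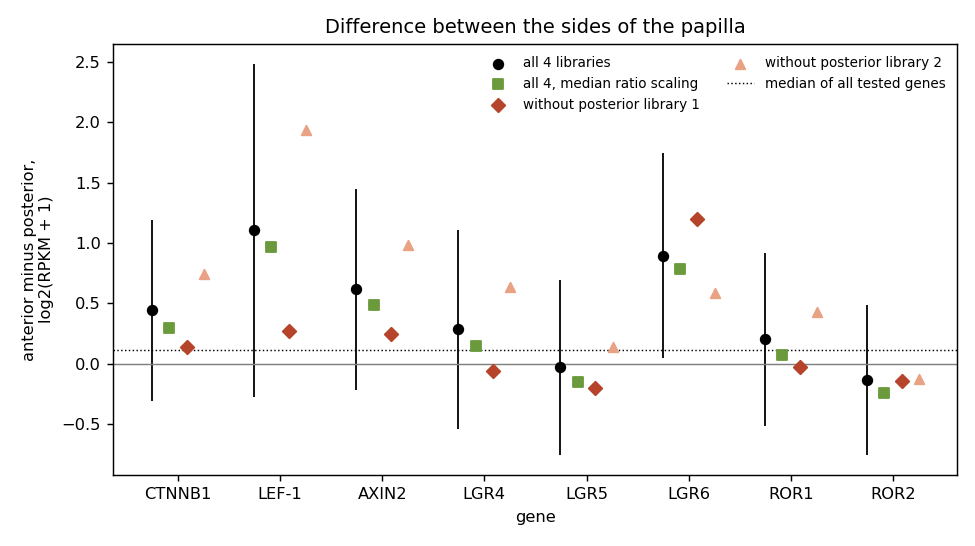
Anterior minus posterior difference in log2(RPKM + 1) for each gene. Black circles use all 4 libraries, with 95% limma intervals as lines, green squares follow median ratio scaling, and red symbols leave out a posterior library. The dotted line is the median of all tested genes with all 4 libraries, 0.11. The points of CTNNB1, LEF-1, AXIN2 and LGR6 lie above 0 in each of the 4 fits. In these genes both anterior libraries lay above both posterior libraries, so leaving out a posterior library could not turn their direction.

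Among the R-spondin receptors LGR6 separated the sides, and LGR4 and LGR5 did not. LGR6 measured 4.76 and 3.15 on the anterior and 2.25 and 1.13 RPKM on the posterior side. Its means were 3.96 ± 1.14 RPKM (SD, n = 2) and 1.69 ± 0.793 RPKM (n = 2), a ratio of 2.34. Both anterior libraries were higher in all 4 comparisons of an anterior with a posterior library, by 0.35 to 1.44 on the log2 scale. The log2 difference was 0.89 with a standard error of 0.34, an interval from 0.044 to 1.74 and an unadjusted limma p of 0.0423 (adjusted p = 0.964). LGR6 was lowest in posterior library 2, unlike LEF-1, AXIN2 and CTNNB1. Its difference was therefore larger without posterior library 1, at 1.20, than without posterior library 2, at 0.59. It was 0.78 after median ratio scaling, with an unadjusted limma p of 0.0786, and over all alternatives its unadjusted limma p ran from 0.0082 to 0.263 (adjusted p from 0.261 to 0.9999). LGR6 is a low gene, at the 31.3rd to 49.5th percentile of all genes, so the added 1 RPKM shrinks its difference, which was 1.23 with 0.1 added.

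LGR4, the most abundant of these receptors in every library, measured 26.0 and 20.2 RPKM on the anterior side, and 14.4 and 24.0 RPKM on the posterior side. Posterior library 2 lay between the anterior libraries, so the sides overlapped. The log2 difference was 0.28 with a standard error of 0.33 and an interval from -0.54 to 1.11 (limma adjusted p = 0.964), and it was -0.064 without posterior library 1.

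LGR5, a stem cell marker of the mouse intestine and hair follicle, measured 5.51 and 3.94 on the anterior and 4.16 and 5.52 RPKM on the posterior side. The highest and the lowest value differed by a factor of 1.40, with the lowest in an anterior library. The log2 difference was -0.032 with a standard error of 0.29, and the interval, from -0.75 to 0.69, leaves room for a difference in either direction (limma adjusted p = 0.991).

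**Figure D3:**
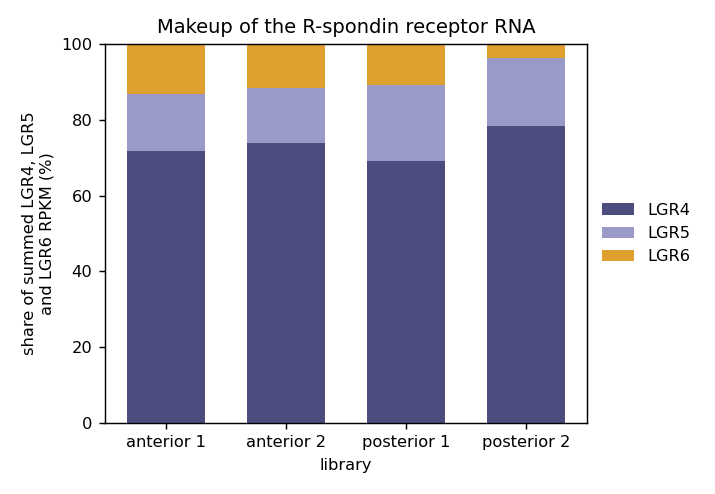
Share of LGR4, LGR5 and LGR6 in their summed RPKM, in percent, with 1 stacked bar per library. LGR4 makes up 69.2% to 78.3% in all libraries, and the LGR6 share at the top is smallest in posterior library 2, at 3.69%.

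The makeup of the receptor RNA, which does not depend on the scaling of a library, is drawn in the stacked bars of receptor shares. The summed level of LGR4, LGR5 and LGR6 was 36.3 and 27.3 RPKM on the anterior side, and 20.8 and 30.7 RPKM on the posterior side, so the sides overlapped. LGR4 contributed 71.7% and 74.0% in anterior and 69.2% and 78.3% in posterior libraries. LGR5 contributed 15.2% and 14.4% in anterior against 19.97% and 18.02% in posterior libraries, and LGR6 13.1% and 11.6% against 10.8% and 3.69%. Both shares separated the sides without overlap, in opposite directions. Shares of a common sum are tied to each other, and no background over other genes was computed for shares or ratios. LGR5 stood at 1.16 and 1.25 times the level of LGR6 in the anterior libraries, and at 1.85 and 4.88 times in posterior libraries 1 and 2. The LGR4 to LGR6 ratio overlapped, at 5.45 and 6.40 in anterior and 6.40 and 21.2 in posterior libraries. With posterior library 2 left aside, the LGR6 share was thus 10.8% to 13.1%, and the low share rests on that library.

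ROR2 varied little, and ROR1 differed by a factor of 1.55 between its highest and lowest library. ROR1 measured 9.57 and 11.9 on the anterior and 7.65 and 10.9 RPKM on the posterior side, and posterior library 2 lay within the anterior range. The log2 difference was 0.20 with a standard error of 0.29 and an interval from -0.51 to 0.92 (limma adjusted p = 0.964). Without posterior library 1 it was -0.027. ROR2 measured 2.54 and 2.78 RPKM on the anterior side, and 2.99 and 3.04 RPKM on the posterior side. Both posterior values were the higher ones, at means of 2.66 ± 0.1703 and 3.02 ± 0.0295 RPKM (SD, n = 2 each). The highest and lowest library differed by a factor of only 1.20, the smallest such factor of the 8 genes, and the log2 difference of -0.14 had a standard error of 0.25 (limma adjusted p = 0.967). The ROR1 to ROR2 ratio was 3.77 and 4.27 in anterior and 2.55 and 3.58 in posterior libraries, without overlap. No background over other gene pairs was computed for it. WNT5A, the ligand of both receptors, measured 66.5 and 75.6 on the anterior and 17.6 and 70.6 RPKM on the posterior side. WNT5A was thus low in posterior library 1, where ROR2 was not.

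Posterior library 1 was the lowest library for LEF-1, AXIN2, CTNNB1, LGR4 and ROR1, 5 of the 8 genes, and it was the lowest for 54.5% of all tested genes. The genes differed in how far below they lay. Set against the mean of the other 3 libraries, posterior library 1 held 26.0% of the LEF-1 level, 49.5% of AXIN2, 61.3% of CTNNB1, 61.6% of LGR4 and 71.0% of ROR1. It held 74.7% of LGR6, 83.3% of LGR5 and 107.6% of ROR2, and the median over all tested genes was 82.6%. Only 2.64% of tested genes had a lower value than LEF-1 by this measure. For AXIN2 that share was 16.1%, and for CTNNB1 and LGR4 it was 27.9% and 28.3%.

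**Figure D4:**
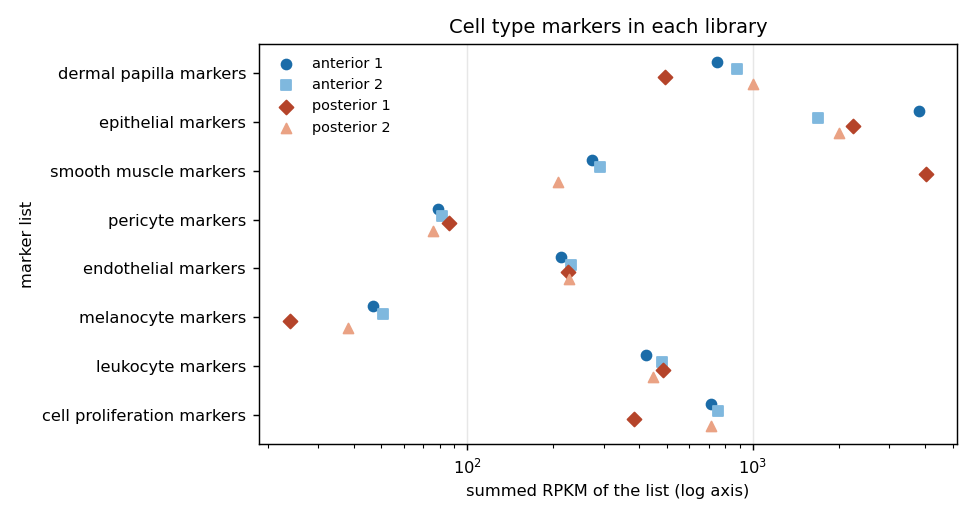
Summed RPKM of each marker list in each library, on a log axis, with 1 point per library. Posterior library 1 (dark red diamonds) is far to the right for smooth muscle markers, at 4028, and to the left for dermal papilla and cell proliferation markers.

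Other markers moved with the low values of that library, as the plot of marker sums shows. Dermal papilla markers summed to 492 RPKM in posterior library 1 and to 748 to 1001 RPKM in the others. Of the 16 tested, 12 were lowest there, against 54.5% of all tested genes. Cell proliferation markers summed to 382 RPKM against 713 to 758 RPKM, with 17 of 18 lowest there. Of the 10 tested smooth muscle markers 0 were lowest there, and MYH11, the smooth muscle myosin, measured 1222 RPKM against 16.8 to 50.5 RPKM. Pericyte and endothelial markers summed to similar levels in all libraries, at 76.1 to 86.6 RPKM and 212 to 231 RPKM. Of 16 tested endothelial markers 10 were lowest in posterior library 1, against the same 54.5% of all tested genes. PECAM1 and CDH5 were highest there, at 70.1 and 45.5 RPKM. Melanocyte markers summed to 24.1 and 38.3 RPKM in posterior and 46.9 and 50.8 RPKM in anterior libraries. Leukocyte and nerve markers summed to 421 to 483 and 31.5 to 33.6 RPKM over the libraries, blood cell markers to 147 to 640 RPKM with the highest sum in anterior library 2, and adipocyte markers to 88.6 to 174 RPKM with the highest in posterior library 1. Skeletal muscle markers summed to 567 RPKM in posterior library 1, nearly all of it the actin gene ACTA1, while the muscle factor MYOD1 stayed at or below 0.0864 RPKM. Stress genes were high in library 1 of each side, at 1476 and 1434 RPKM, against 737 and 823 RPKM in library 2. The part of these cell types and of the depth in the LEF-1, AXIN2, CTNNB1 and LGR4 values was not tested. For LGR6 the low library was posterior 2, where smooth muscle markers were at 209 RPKM. Epithelial markers summed to 3830 RPKM in anterior library 1, where LGR6 was highest, and to 1696, 2247 and 1996 RPKM in anterior 2, posterior 1 and posterior 2, and their part in the LGR6 values was not tested.

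The profiles of the 8 genes over the 4 libraries were compared by the distance between log2 values centred on each gene's mean, as a description over 4 libraries. The closest pair was LGR4 and CTNNB1, at a distance of 0.18, and the LGR4 level was 6.08% to 7.28% of the CTNNB1 level in every library. The next pair, LGR4 and LGR5, was at 0.41, and the farthest, LEF-1 and ROR2, at 1.70. LGR6 was at least 0.98 from each of the others.

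LEF-1, AXIN2 and LGR6 ranged over at least 1 log2 unit between libraries, and for these the 3 nearest of 6820 named genes with a mean of at least 5 RPKM were sought. Nearest to LEF-1 was PCSK6, a proprotein convertase, at a distance of 0.13. ID1, a target of BMP signalling, and ADAMTS9, a metalloprotease of the ADAMTS family, followed at 0.15 each. PCSK6 measured 24.5 and 27.7 RPKM on the anterior side, and 6.81 and 22.4 RPKM on the posterior side, low in posterior library 1 alone as LEF-1 was. Nearest to AXIN2 were NT5C3B at 0.052, SPATA2L at 0.056 and the cell cycle factor E2F4 at 0.058. LGR6 had no such close neighbour among these candidates. Its own side means, 3.96 and 1.69 RPKM, lay below the 5 RPKM asked of them, so genes at its level were not searched. The nearest genes to LGR6 were NSDHL and CYP51A1, enzymes of cholesterol synthesis, at 0.44 and 0.46, and the transcription factor NFIB at 0.47. NSDHL measured 26.6 and 17.0 on the anterior and 13.6 and 12.7 RPKM on the posterior side, a smaller drop in posterior library 2 than that of LGR6.

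**Figure D5:**
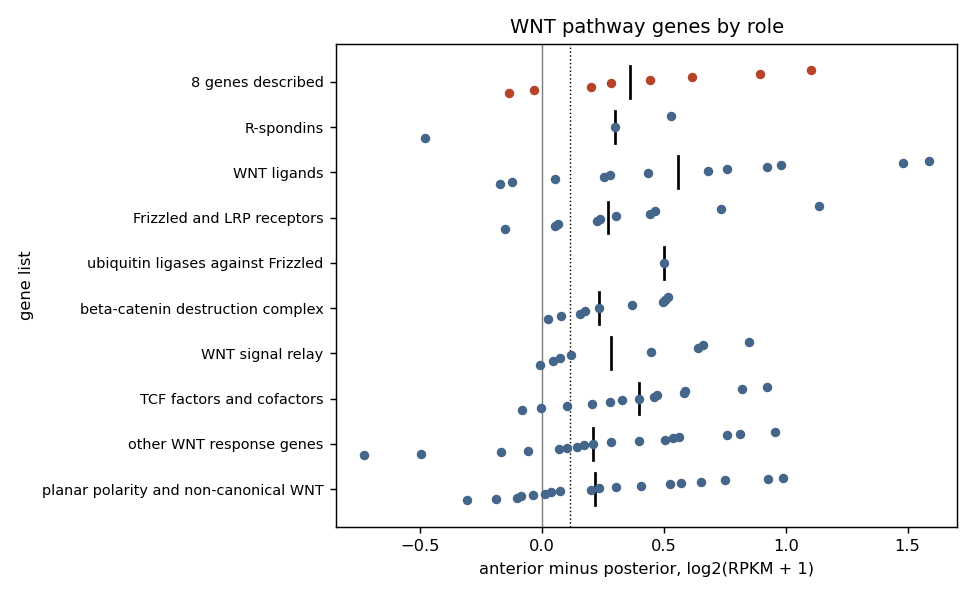
Anterior minus posterior difference in log2(RPKM + 1) of the 8 genes (red) and of the other WNT pathway genes by role (blue), with 1 point per tested gene. Black bars are list medians and the dotted line is the median of all tested genes, 0.11. Each list median lies to the right of it, at 0.21 to 0.56.

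The rest of the pathway was read from 9 lists of 128 genes by role, of which 99 were in the table and 91 were tested. None passed (limma adjusted p). At an unadjusted limma p under 0.05, 2 genes were higher on the anterior side (WNT2B and DAAM1) and 0 on the posterior side. Over all tested genes these shares were 0.713% and 0.229%. WNT2B passed the filter through the anterior libraries alone. The median log2 difference was 0.30, with 75 positive and 16 negative differences, and 64.6% of all tested genes had a positive difference. After median ratio scaling it was 0.20, with 63 positive and 28 negative, against 49.2% positive over all tested genes. Without posterior library 1 it was 0.059, with 59 and 32, against a median of 0.023 and 55.8% positive over all tested genes. Both anterior libraries lay above both posterior libraries for 26 genes, 28.6% against 18.9% of all tested genes, and the reverse held for 2 genes, 2.20% against 7.25%. After median ratio scaling these counts were 18 and 6 of the 91, against 1466 and 1392 of all 10939 tested genes. Posterior library 1 was the lowest for 68 of the 91, or 74.7%, against 54.5% of all tested genes. The list medians appear as bars in the plot of differences by role.

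Upstream of the LGR receptors, the R-spondins gave no common direction. RSPO1 measured 5.83 and 8.33 RPKM on the anterior side, and 2.49 and 7.80 RPKM on the posterior side. RSPO2 measured 4.16 and 9.45 RPKM, compared with 5.43 and 15.3 RPKM, highest in posterior library 2, where LGR6 was lowest. RSPO3 lay between 1.15 and 2.998 RPKM, with the sides overlapping, and RSPO4 stayed below the filter. ZNRF3, a ubiquitin ligase that the R-spondins and LGR receptors act on, measured 2.89 and 2.02 on the anterior and 1.001 and 1.92 RPKM on the posterior side, and its partner RNF43 stayed below the filter. Among 12 tested WNT ligands WNT2B had the smallest unadjusted limma p, 0.00488 (adjusted p = 0.964). It measured 3.01 and 2.36 RPKM on the anterior side, and 0.0584 and 0.632 RPKM on the posterior side. WNT7A came next, at 1.59 and 1.14 RPKM, compared with 0.111 and 0.741 RPKM. Both genes passed the filter of 1 RPKM through the anterior libraries alone, so their place among the tested genes depends on the side where they were high.

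Among 10 tested Frizzled and LRP receptors, 9 differences were positive and 5 genes had both anterior above both posterior libraries, against 18.9% of all tested genes. After median ratio scaling 7 differences were positive, and 4 genes were separated with anterior higher and 1 with posterior higher. Over all 10939 tested genes, 1466 and 1392 were separated in these directions after the scaling. FZD10 measured 14.3 and 7.16 RPKM on the anterior side, and 2.36 and 6.68 RPKM on the posterior side, and FZD7 12.9 and 11.6 RPKM, compared with 4.63 and 10.2 RPKM. In the signal relay the WNT cargo receptor WLS, needed to secrete WNT proteins, measured 119 and 64.5 RPKM, compared with 32.2 and 72.2 RPKM, and the kinase gene CSNK1E 18.1 and 15.7 RPKM, compared with 6.99 and 14.97 RPKM. In the destruction complex all 9 tested differences were positive, with a median of 0.24 that was 0.059 without posterior library 1. GSK3B, the kinase that marks beta-catenin for destruction, measured 20.3 and 17.6 on the anterior and 10.1 and 16.7 RPKM on the posterior side. AXIN1, the scaffold related to AXIN2, measured 8.44 and 7.91 RPKM, compared with 3.98 and 7.47 RPKM. After median ratio scaling 7 of the 9 were positive, with a median of 0.11.

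LEF-1 was above the other tested DNA-binding factors of its family, TCF7L1 and TCF7L2, in every library. TCF7 was not found in the expression table and could not be compared. TCF7L1 measured 4.06 and 5.38 RPKM on the anterior side, and 1.74 and 4.24 RPKM on the posterior side, and TCF7L2 4.17 and 5.89 RPKM, compared with 3.44 and 5.02 RPKM. Of the cofactors, the corepressor genes CTBP2 and TLE3 had the smallest p. CTBP2 measured 12.9 and 17.2 RPKM, compared with 5.71 and 11.1 RPKM, and TLE3 9.19 and 9.99 RPKM, compared with 2.72 and 7.38 RPKM. Over the 13 tested factors and cofactors 11 differences were positive and the median was 0.40, which became 0.29 after median ratio scaling and 0.12 without posterior library 1.

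Among 17 other tested WNT response genes 13 differences were positive and 4 negative, with a median of 0.21. Without posterior library 1 the median was -0.039, with 7 positive and 10 negative. NKD1, a feedback inhibitor, measured 15.6 and 18.4 on the anterior and 7.63 and 16.8 RPKM on the posterior side, NOTUM, an enzyme that inactivates WNT proteins, 16.2 and 21.6 RPKM, compared with 3.65 and 21.2 RPKM, and APCDD1, a membrane inhibitor, 51.6 and 46.4 RPKM, compared with 17.1 and 43.8 RPKM. In these 3 genes, picked after their values were seen, posterior library 1 was the lowest by far, as in AXIN2 and LEF-1. Posterior library 2 lay near the anterior values. Over the list, 11 of the 17 genes were lowest in posterior library 1, against 54.5% of all tested genes. Other genes of the list did not follow. CCND1, a cell cycle gene, lay between 16.6 and 19.4 RPKM in all libraries, and TNIK, a kinase that binds TCF7L2, measured 2.89 and 2.55 RPKM on the anterior side, and 7.79 and 3.31 RPKM on the posterior side, highest in posterior library 1.

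Of 18 tested genes of planar polarity and the other branches that ROR receptors act in, 13 differences were positive, with a median of 0.22. After median ratio scaling 10 were positive and the median was 0.092, and without posterior library 1 it was 0.13. DAAM1, a formin that links Dishevelled to the cytoskeleton, measured 3.76 and 3.60 on the anterior and 1.83 and 2.12 RPKM on the posterior side, with an unadjusted limma p of 0.0448 (adjusted p = 0.964). This p was 0.0568 after median ratio scaling, 0.0789 after quantile normalization and 0.0505 with no filter, and with a library left out it ran from 0.0353 to 0.271 (limma adjusted p from 0.144 to 0.9999). Its sides were apart by more than either side varied, with both posterior libraries low. VANGL2, a core polarity gene, measured 10.4 and 8.60 RPKM, compared with 2.31 and 7.37 RPKM. PTK7, a co-receptor of the polarity branch, measured 54.7 and 65.4 RPKM, compared with 15.3 and 61.9 RPKM, and RYK, another WNT receptor with a kinase-like domain, 26.0 and 23.7 RPKM, compared with 30.3 and 21.4 RPKM, with the sides overlapping.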

How the data were processed

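Per the labels' protocols, Trizol was used to extract RNA from dissected tissue, and libraries were made with an Illumina TruSeq kit. The values are RPKM deposited by the authors, with Ensembl release 78 in the table's name. TopHat2, Partek and the build galGal4 appear in the submitters' processing notes, and the counting of reads is not described (not given in the sources used here). The 4 columns were matched to samples by library number. Names on the lists not found in the table were matched through unique synonyms in NCBI RefSeq, assembly bGalGal1.mat.broiler.GRCg7b, which is another build, so no positions are given.

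The scale was log2(RPKM + 1), on which the fold changes of low genes come out too small. A gene was tested if 2 or more libraries reached 1 RPKM. The test was limma 3.58.1 (R 4.3.3), two-sided, with an eBayes trend, no covariates and 2 residual degrees of freedom. Calls needed a Benjamini-Hochberg adjusted p under 0.05. The test was checked on simulated data with large known changes and low, equal noise, which does not show its power for the differences described here. Means, ratios and distances were computed in Python 3.11.15. Ratios of low values fell on ratios of whole numbers for 44.9% to 46.9% of genes, within 0.002 on the natural log scale, which gave relative depths but no counts. Alternatives were other pseudocounts, filters, scalings and eBayes settings, each library left out, and a replicate block.

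The 8 genes, the lists and the rules were chosen with earlier results of these data known. The rule named all 8 genes, the 2 genes of smallest p per pathway list, the nearest profiles and up to 2 genes per marker list. A gene that the rule names is not reported here. RSPO3, RSPO4, RNF43, WNT5A, TCF7L1, TCF7L2, NKD1, NOTUM, APCDD1, CCND1, PTK7 and RYK were added after their values were seen.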

Additional observations from a re-analysis of the deposited data

How the results depend on the processing

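The count of called genes was 0 of all genes in all fits but 2, and 0 of the 8 in all fits but 1. Without posterior library 2, limma called 226 of all 10939 tested genes. These held 1 of the 8, LEF-1 (1.93), and 6 of the 91 other pathway genes. In that fit posterior library 1 stands alone, so these counts describe that library and not the posterior side. Leaving out each library in turn gave 0 to 226 genes in all and 0 to 1 of the 8. With the library number as a replicate block, limma called 2 genes in all and 0 of the 8, where LEF-1 and LGR6 had unadjusted limma p of 0.0081 and 0.0082 (adjusted p = 0.832 for each). The numbers come from the column names, and no label pairs the sides. Same-numbered libraries deviated together over genes (r = 0.49). Of 198 genes at least 2-fold apart between the numbers on both sides, 187 went in the same direction. With 2 pairs this does not show pairing, and the main fit has no term for the library number. Unadjusted limma p under 0.05 was found for 103 genes in all, 78 higher in anterior and 25 in posterior tissue, and for 617 with the block.

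With each library left out in turn, the median log2 difference over the 8 genes ran from 0.056 (without posterior library 1) to 0.61 (without posterior library 2). Over all tested genes this median was 0.023 and 0.22 in the same fits. Of the 8 genes, the count whose sides did not overlap was 5 as deposited, 4 after median ratio scaling and 6 to 7 with a library left out. Over all 10939 tested genes this count was 2863 as deposited, 2858 after the scaling and 5705 to 9247 with a library left out. Fewer libraries make separation easier. LGR5, LGR4 and ROR1 turned direction with a library left out. LGR5 ran from -0.23 to 0.17, and was positive without anterior library 2 and without posterior library 2 (0.14). LGR4 ran from -0.064 to 0.63 and ROR1 from -0.027 to 0.43, each negative without posterior library 1. Over the alternatives, 97 values of the 8 genes kept their direction and did not pass, and 4 turned direction. The filters, the eBayes settings and the block cannot move a difference, so their values kept direction by construction. For the 5 genes whose sides did not overlap, leaving out a library or changing the pseudocount could not turn the direction either. Of the alternatives, the filter of 5 RPKM left LGR6 and ROR2 untested.

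Scaling moved the balance of the sides over all genes. As deposited, 78 against 25 genes had an unadjusted p under 0.05, and 66 against 34 after median ratio scaling and 66 against 48 after quantile normalization. The read depth is unknown, so no counting error can be given for low genes such as LGR6 and ROR2.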
